A study of Mus musculus with 48 samples.

Results

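Amino acid transporter genes were followed in mouse liver after 1 of 3 modified gapmer antisense oligonucleotides against Scarb1 or after PBS. The set holds every row of the count table whose symbol belongs to the solute carrier families Slc1, Slc3, Slc6, Slc7, Slc36, Slc38 or Slc43, 59 genes of 23930. A member was called detected at a mean of 1 CPM (a count scaled to the size of its library) or more in any group, which 31 of the 59 reached. In the labels the treatments are LX-A1656, LX-A2003, LX-A3928 and the vehicle PBS. Each was sampled at 24 h, 72 h and 168 h after the first administration, which made 12 groups of 4 replicates, 48 libraries in all. A gapmer is a chemically modified oligonucleotide that pairs with its target RNA and leads RNase H to cut it. The sources used here give neither the dose, repeat dosing and sequence of the oligonucleotides nor the strain, sex and age of the mice. Whether each replicate was its own animal is not stated in the labels. Every p-value therefore reflects only how far these samples spread, and part of that spread may be technical.

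Amino acids cross membranes through carriers that differ in substrate and in driving force. Sodium-coupled carriers concentrate amino acids in the cell, exchangers trade an amino acid inside for another outside, and some exchangers are light chains that need a heavy chain partner to reach the plasma membrane. The liver takes up alanine, glutamine and other gluconeogenic amino acids and the arginine, ornithine and lysine group, and clears glutamate and ammonia in separate zones of the lobule. Several carriers are known targets of ATF4, the transcription factor of the amino acid and integrated stress response. The Slc6 family also carries neurotransmitters, creatine and osmolytes.

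Libraries held from 8140065 to 17191129 counts, with a median of 10659453. The assay amplifies a designed fragment of each gene, so levels of different genes are not compared here, and each value reports on that fragment alone. Scarb1 lay between 3.36 and 56.8 CPM in the oligonucleotide libraries and between 236 and 410 CPM in the PBS libraries, as labelled. Replicate pairs differed by a chi-square per degree of freedom of 6.08 to 232, more than sampling noise, and no 2 were counted as 1. In 6 of the 48 libraries the smallest difference from a fellow replicate was at least 1.5 times the largest among the other 3, a criterion set after the values were seen, and in the other libraries that ratio was at most 1.39. They were replicate 1 of LX-A1656 (ratio 2.36), replicate 1 of LX-A2003 (2.33) and replicate 4 of LX-A3928 (2.32) at 72 h, and replicate 4 of LX-A1656 (1.68), replicate 4 of LX-A2003 (1.65) and replicate 3 of LX-A3928 (1.6) at 168 h. Counts of members called that change without one of them are given both ways.

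Of the 59 members, 32 passed the filter on low counts, which left 12672 genes for testing. The 28 members not detected had group means up to 0.893 CPM, the value of Slc38a9, which was tested nevertheless. Among the 59, Slc6a14, Slc7a12 and Slc7a14 had 0 counts in all 48 libraries, and 24 others had 1 to 100 counts in all. By family, 3 of 6 Slc1 genes, 2 of 2 Slc3, 6 of 18 Slc6, 8 of 15 Slc7, 2 of 4 Slc36, 7 of 11 Slc38 and 3 of 3 Slc43 genes were detected. In PBS groups 28 members were detected. Slc6a4, Slc7a6 and Slc7a11 reached 1 CPM only in oligonucleotide groups, with highest PBS group means of 0.553, 0.565 and 0.0499 CPM, so the filter kept them through the groups where they are high. Their values are given as a description with no test, and counts over the tested members, which include them, are a description too.

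At 168 h the levels of most tested transporter genes stood apart from PBS with each oligonucleotide, and more were higher than lower. LX-A1656 gave 19 higher and 4 lower of 32, LX-A2003 18 higher and 5 lower, and LX-A3928 17 higher and 8 lower (adjusted p under 0.05, edgeR quasi-likelihood test with Benjamini-Hochberg adjustment over all genes tested). The shares called were 71.9%, 71.9% and 78.1% of the tested members, where 63.9%, 55.1% and 48% of all genes were called. In each direction the share of all genes was 34.1% higher and 29.7% lower with LX-A1656, 29.8% and 25.3% with LX-A2003, and 27.3% and 20.7% with LX-A3928. The tested members had a median log2 fold change of 1.05 (LX-A1656), 0.88 (LX-A2003) and 0.77 (LX-A3928), beside 0.10, 0.04 and 0.08 over all genes. These medians do not move when Slc7a11 is put at its lower bound given below, since the bound also lies above them. Without replicate 4 of the LX-A1656 group the count was 19 higher and 6 lower, without replicate 4 of the LX-A2003 group it was 17 higher and 4 lower, and without replicate 3 of the LX-A3928 group it was 17 higher and 6 lower. Fitted on the 8 libraries compared alone, the LX-A3928 count was 13 higher and 4 lower, with 3208 rather than 6087 of all genes called. Scaled to library totals alone the LX-A3928 count was 18 higher against 3 lower. That scaling moved the all-gene median log2 fold change by 0.30.

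The 16 members called higher with all 3 oligonucleotides at 168 h were Slc1a4, Slc1a5, Slc3a2, Slc6a8, Slc6a9, Slc7a1, Slc7a5, Slc7a6, Slc7a7, Slc7a8, Slc7a11, Slc36a4, Slc38a1, Slc38a4, Slc43a1 and Slc43a2. Slc1a2, Slc3a1, Slc6a12 and Slc6a13 were called lower with all 3. The 3 comparisons share their 4 PBS libraries, so the overlap of their calls is a description. The share of all genes called with all 3 was not counted, and Slc7a6 and Slc7a11 are among the members given without a test. Slc38a7, Slc38a9 and Slc38a10 were called in none of the 9 comparisons with PBS.

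Among the System ASC exchangers, Slc1a5 (ASCT2), which takes up glutamine and other neutral amino acids in exchange, was higher with all 3 oligonucleotides at 72 h and at 168 h. At 168 h its libraries read 24.8, 30.4, 29.7 and 38.8 CPM with LX-A1656, 9.94, 14.2, 8.65 and 8.87 CPM with LX-A2003, 7.73, 9.65, 5.36 and 12.5 CPM with LX-A3928, and 1.88, 0.724, 0.942 and 1.14 CPM with PBS. No oligonucleotide library overlapped PBS, and the LX-A1656 libraries also lay above all those of the other oligonucleotides. The log2 fold changes were 4.72 ± 0.32 (SE; adjusted p 3.67e-17), 3.15 ± 0.32 (1.97e-11) and 2.92 ± 0.32 (2.50e-10) after LX-A1656, LX-A2003 and LX-A3928. At 72 h the group means were 4.40 ± 1.42, 2.46 ± 0.406 and 1.95 ± 0.751 CPM (SD, n = 4) after LX-A1656, LX-A2003 and LX-A3928, against 0.582 ± 0.150 CPM with PBS. The related Slc1a4 (ASCT1), a carrier of alanine, serine and cysteine, averaged 44.9 ± 7.38, 61.8 ± 13.5 and 32.8 ± 15.0 CPM at 168 h after LX-A1656, LX-A2003 and LX-A3928, against 15.5 ± 5.70 CPM with PBS. Its LX-A3928 libraries spread widely, at 27.1, 43.7, 14.2 and 46.1 CPM, and overlapped the PBS range of 9.01 to 21.3 CPM through replicate 3. Without that library the log2 fold change was 1.33, against 1.09 with it.

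The heavy chains moved apart. Slc3a2 (4F2hc, CD98), which brings the Slc7 light chains LAT1, LAT2, y+LAT1, y+LAT2 and xCT to the plasma membrane, averaged 99.2 ± 28.2, 84.6 ± 20.2 and 75.4 ± 32.9 CPM at 168 h after LX-A1656, LX-A2003 and LX-A3928, against 42.9 ± 13.4 CPM with PBS. Its log2 fold changes were 1.21 ± 0.23, 0.98 ± 0.23 and 0.82 ± 0.23 (adjusted p 1.23e-05, 0.000324 and 0.00273). The LX-A3928 libraries, from 43.9 to 114 CPM, overlapped the PBS libraries, from 30.3 to 59.5 CPM. Fitted on those 8 libraries alone, the LX-A3928 value of 0.86 missed the threshold at an adjusted p of 0.0768.

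Slc3a1 (rBAT), the heavy chain of the cystine and dibasic amino acid exchanger, was lower. At 168 h it read 12.1, 27.8, 27.4 and 27.1 CPM with LX-A1656, 22.2, 17.1, 17.6 and 14.7 CPM with LX-A2003, 47.7, 37.5, 62.6 and 30.6 CPM with LX-A3928, and 86.3, 100, 124 and 94.7 CPM with PBS. Every oligonucleotide library lay below every PBS library. The log2 fold changes were -2.10 ± 0.21, -2.50 ± 0.22 and -1.19 ± 0.21 after LX-A1656, LX-A2003 and LX-A3928 (adjusted p 7.08e-12, 1.63e-13 and 4.97e-06). Its light chain partner Slc7a9, named here after its values were seen, was not detected and not tested. It had 38, 10 and 8 counts in the LX-A1656, LX-A2003 and LX-A3928 libraries at 168 h and 0 in PBS. Scaled to library totals alone, this was at least 9.68-, 2.85- and 2.28-fold over a floor of 3 counts for the PBS group. That scaling moved the all-gene median log2 fold change upward by 0.47, 0.42 and 0.30, so these folds are higher than on the scale of the CPM.

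**Figure D1:**
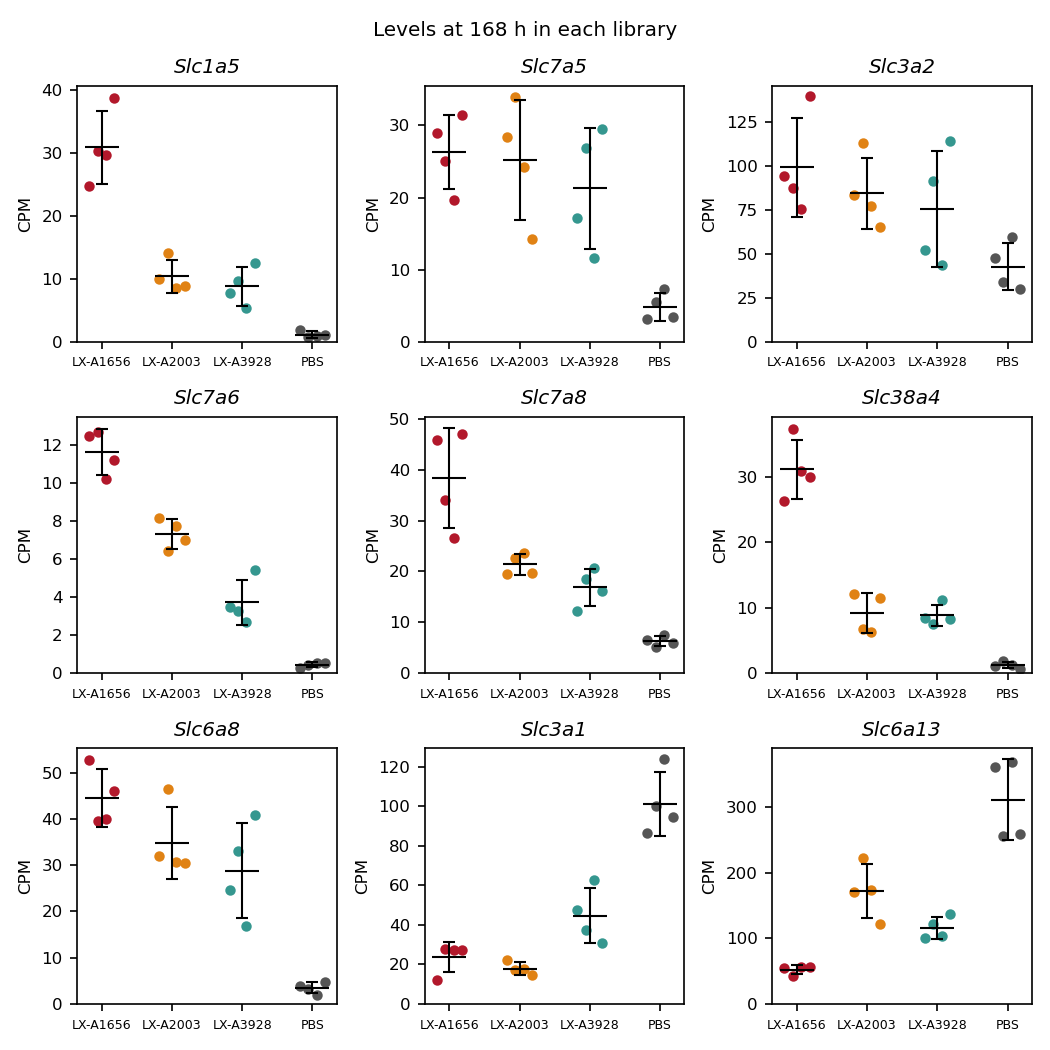
Levels at 168 h of 9 transporter genes in CPM, 1 point for each library, with the group mean and SD of 4 libraries in black. Libraries of Slc1a5, Slc7a5, Slc7a6, Slc7a8, Slc38a4 and Slc6a8 from all 3 oligonucleotide groups lie above PBS, those of Slc3a1 and Slc6a13 lie below PBS, and the LX-A3928 libraries of Slc3a2 overlap PBS.

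System L carriers of leucine and other large neutral amino acids were higher at 168 h, all 4 tested with each oligonucleotide, beside 34.1%, 29.8% and 27.3% of all genes. Of these calls, that of Slc43a2 with LX-A3928 was lost in several other fits, given below. Slc7a5 (LAT1), an exchanger that is low in resting liver, read 28.9, 25, 19.7 and 31.5 CPM with LX-A1656, 28.4, 33.9, 24.2 and 14.3 CPM with LX-A2003, 17.1, 26.9, 11.6 and 29.5 CPM with LX-A3928, and 3.14, 5.49, 7.27 and 3.43 CPM with PBS. The oligonucleotide groups lay above PBS without overlap and overlapped one another. The log2 fold changes were 2.44 ± 0.31, 2.38 ± 0.31 and 2.14 ± 0.31 (adjusted p 2.51e-09, 8.05e-09 and 1.17e-07). Slc7a8 (LAT2), its relative in epithelia, averaged 38.4 ± 9.84, 21.4 ± 2.10 and 16.9 ± 3.60 CPM after LX-A1656, LX-A2003 and LX-A3928, against 6.21 ± 0.969 CPM with PBS. Slc43a1 (LAT3), a facilitative carrier of branched-chain amino acids, averaged 32.1 ± 5.43, 21.9 ± 4.73 and 21.9 ± 5.75 CPM, against 10.1 ± 2.86 CPM with PBS. It was the System L gene called with all 3 oligonucleotides at 72 h as well, with log2 fold changes of 0.66, 0.98 and 0.73 (adjusted p 0.0131, 0.00161 and 0.0274). The LX-A1656 and LX-A3928 calls at 72 h were each lost when 1 of several libraries was left out, including replicate 4 of LX-A3928 (0.72, adjusted p 0.0563).

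Slc43a3 with LX-A1656 was lower at 72 h and higher at 168 h, and the same pattern for Slc43a3 with LX-A2003 and Slc43a2 with LX-A3928 rested on single libraries. Slc43a2 (LAT4), also a facilitative carrier of branched-chain amino acids, was lower with LX-A3928 at 72 h by a log2 fold change of -0.65 ± 0.19 (adjusted p 0.0200) and higher at 168 h by 0.47 ± 0.19 (0.0379). The 168 h effect differed from the 72 h effect by 1.12 ± 0.27 (adjusted p 0.00168), in a comparison that was added after these values were seen. The 72 h call was lost in 3 of 8 fits that left out 1 library (adjusted p 0.0546 to 0.0851). The 168 h call was lost in 4 of 8 (0.31 to 0.37 on the log2 scale), without the filter (adjusted p 0.0613) and on the 8 libraries alone (0.222). Slc43a3, known as a purine nucleobase carrier rather than one of amino acids, read 10.8, 12.7, 12.2 and 17.3 CPM with LX-A1656 at 72 h, against 21.8, 27.4, 29.2 and 32.1 CPM with PBS. At 168 h it read 75.1, 70.3, 70.1 and 70.9 CPM with LX-A1656, against 18.7, 28.8, 19.4 and 22.1 CPM with PBS. Both sets were free of overlap, below PBS at 72 h and above it at 168 h. The 2 effects differed by 2.74 ± 0.26 on the log2 scale (adjusted p 2.58e-11), and the like difference with LX-A2003 was 1.09 ± 0.26 (0.00111), also added after the values were seen. With LX-A2003 the 72 h value was -0.62 ± 0.18 (adjusted p 0.0172), lost without replicate 1 of LX-A2003 or replicate 4 of PBS (0.0772 and 0.0733). The 168 h value was 0.46 ± 0.18 (adjusted p 0.0297), lost in 5 of 8 fits that left out 1 library (0.31 without replicate 4 of LX-A2003, adjusted p 0.164), without the filter (0.0523) and on the 8 libraries alone (0.0802). With LX-A3928 the 72 h value of -0.61 ± 0.18 (adjusted p 0.0256) was called, and was lost in 5 of 8 fits that left out 1 library (-0.49 without replicate 4 of LX-A3928, adjusted p 0.124), while the 168 h value of 0.21 ± 0.18 was not called (0.357).

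Cationic carriers of arginine, lysine and ornithine were split between the widely expressed Slc7a1 (CAT1) and Slc7a2 (CAT2), the form known from liver. Slc7a1 averaged 8.09 ± 0.532, 5.49 ± 1.61 and 4.55 ± 0.930 CPM at 168 h after LX-A1656, LX-A2003 and LX-A3928, against 1.06 ± 0.378 CPM with PBS. It was also higher with all 3 at 72 h, by log2 fold changes of 2.67 ± 0.33, 1.28 ± 0.36 and 1.81 ± 0.35 (adjusted p 4.24e-09, 0.0107 and 0.000196). Slc7a2 went the other way at 72 h with LX-A1656, at 9.56, 30.5, 23.3 and 13.9 CPM, against 93.9, 121, 84.2 and 118 CPM with PBS. At 168 h its LX-A1656 libraries read 132, 165, 160 and 98.8 CPM, all above the PBS libraries at 60.9, 76.6, 94.4 and 74 CPM. The log2 fold changes with LX-A1656 were -2.44 ± 0.26 at 72 h and 0.86 ± 0.25 at 168 h, and they differed by 3.30 ± 0.36 (adjusted p 9.03e-10). With LX-A2003 and LX-A3928 the 168 h means were 58.6 ± 16.1 and 47.9 ± 14.8 CPM, against 76.5 ± 13.8 CPM with PBS. Of these only LX-A3928 was called (-0.67 ± 0.25, adjusted p 0.0232), and the call was lost in 4 of 8 fits that left out 1 library (-0.58 without replicate 3 of LX-A3928, adjusted p 0.0740), on the 8 libraries alone (0.0684) and with scaling to library totals (-0.34, 0.286). Slc7a4, another member of the family, was called higher at 168 h with LX-A2003 and LX-A3928 by 0.97 ± 0.36 and 0.96 ± 0.36 (adjusted p 0.0206 and 0.0249), and with LX-A1656 the value was 0.71 ± 0.36 (0.0799).

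**Figure D2:**
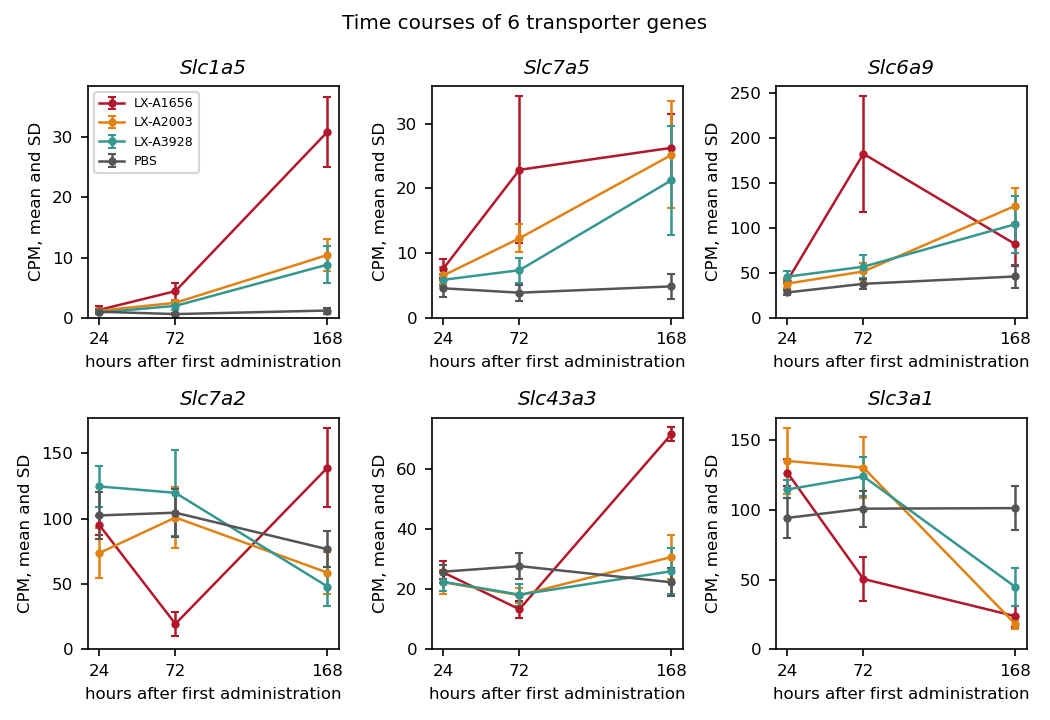
Mean and SD of 4 libraries in CPM against time after first administration for 6 transporter genes, 1 line for each treatment. Slc6a9 with LX-A1656 peaked at 182 CPM at 72 h, Slc7a2 with LX-A1656 was at 19.3 CPM at 72 h and 139 CPM at 168 h, and Slc43a3 with LX-A1656 was at 13.3 and 71.6 CPM at those times.

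The y+L exchangers, light chains that export cationic amino acids in exchange for neutral ones, had higher levels at 168 h. Slc7a6 (y+LAT2), given without a test, read 12.5, 12.7, 10.2 and 11.2 CPM with LX-A1656, 8.14, 6.41, 7.76 and 6.99 CPM with LX-A2003, 3.49, 3.24, 2.68 and 5.44 CPM with LX-A3928, and 0.251, 0.414, 0.538 and 0.508 CPM with PBS. The 4 groups did not overlap. These were 695, 378 and 184 counts after LX-A1656, LX-A2003 and LX-A3928 against 14 counts with PBS, at fitted log2 fold changes of 4.74, 4.07 and 3.10. Slc7a7 (y+LAT1) averaged 19.2 ± 4.66, 23.2 ± 3.76 and 17.4 ± 0.595 CPM, against 8.85 ± 2.34 CPM with PBS.

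The cystine light chain Slc7a11 (xCT), which imports cystine for glutathione synthesis in exchange for glutamate, had few counts. At 168 h it read 1.78, 1.07, 0.584 and 1.05 CPM with LX-A1656, 1.45, 1.76, 2.76 and 3.36 CPM with LX-A2003, 0.379, 0.754, 0.365 and 0.82 CPM with LX-A3928, and 0 in all 4 PBS libraries. These were 65, 121 and 29 counts after LX-A1656, LX-A2003 and LX-A3928. Scaled to library totals alone, they were at least 16.6-, 34.5- and 8.27-fold higher than a floor of 3 counts over the PBS group. That scaling moved the all-gene median log2 fold change upward by 0.47, 0.42 and 0.30, so these folds are higher than on the scale of the CPM. At 72 h the LX-A1656 libraries held 34 counts and the PBS libraries 2. Also scaled to library totals, this was a ratio of 14.8 with a 95% counting interval of 3.8 to 127 (exact Clopper-Pearson). There that scaling moved the all-gene median upward by 0.22. The floors and this interval take in counting error alone, because amplified reads that carry no molecular identifier do not each stand for a molecule.

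Promoter letters are shown for the 3 members that hold a C/EBP-ATF response element, the composite site through which ATF4 is known to act, since carriers under that factor are a known class and these 3 were all among those higher at 168 h. The element was searched as TGATGNAA, the antioxidant response core as TGACNNNGC and the E-box as CACGTG, on both strands, in RefSeq windows of 300 bases from 250 before to 50 after each annotated start (GRCm38.p6). Windows were found for 41 of the 59 members and for 12 of the 16 called higher with all 3 oligonucleotides at 168 h. The C/EBP-ATF element occurred in 3 of these 12 and in 4.51% of 27025 genes, the antioxidant core in 4 (Slc6a9, Slc7a1, Slc7a6 and Slc43a1) and 14.0%, and the E-box in 1 (Slc43a1) and 8.09%. Over all 41 members with a window the 3 motifs occurred in 3, 9 and 9. A gene counted with a match in any of its windows, and Slc7a7 had 5. The shares were not tested against each other, and the 12 were picked from these same data. Of the 4 members called lower with all 3, none held the element and Slc6a13 held the antioxidant core. A match describes letters and is not shown to be a site of binding. Capitals mark the element, and none of the 3 windows below held the other motifs.
Slc7a11, chr3:50443564-50443863, minus strand: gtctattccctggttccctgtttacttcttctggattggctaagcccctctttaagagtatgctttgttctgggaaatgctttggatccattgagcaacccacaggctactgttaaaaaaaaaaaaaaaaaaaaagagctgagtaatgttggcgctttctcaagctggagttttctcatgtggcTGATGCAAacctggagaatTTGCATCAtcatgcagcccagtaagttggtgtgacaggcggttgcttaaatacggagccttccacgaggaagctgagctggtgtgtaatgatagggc
Slc1a4, chr11:20332664-20332963, minus strand: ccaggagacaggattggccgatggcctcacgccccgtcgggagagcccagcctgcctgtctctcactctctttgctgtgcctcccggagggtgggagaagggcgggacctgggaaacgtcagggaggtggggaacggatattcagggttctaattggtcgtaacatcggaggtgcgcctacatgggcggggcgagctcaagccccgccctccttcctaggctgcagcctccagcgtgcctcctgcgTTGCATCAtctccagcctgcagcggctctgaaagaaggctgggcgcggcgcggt
Slc7a7, chr14:54417895-54418194, minus strand: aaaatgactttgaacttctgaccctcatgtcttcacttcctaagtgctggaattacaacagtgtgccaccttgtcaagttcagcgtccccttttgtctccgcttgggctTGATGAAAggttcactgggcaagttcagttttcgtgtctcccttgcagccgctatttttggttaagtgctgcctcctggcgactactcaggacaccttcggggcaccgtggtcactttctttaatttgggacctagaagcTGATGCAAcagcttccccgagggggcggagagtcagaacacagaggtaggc
In Slc7a11 a pair of elements on opposite strands began 66 and 47 bases before the start. In Slc1a4 the element began 4 bases before it, on the opposite strand, and in the Slc7a7 window shown, 1 of several annotated starts, elements began 141 and 1 bases before it.

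System A carriers concentrate alanine and other small neutral amino acids with sodium. Slc38a4 (SNAT4), a liver carrier of this class, read 26.3, 37.3, 30.9 and 30 CPM at 168 h with LX-A1656, 12.1, 6.78, 6.24 and 11.4 CPM with LX-A2003, 8.34, 7.47, 11.2 and 8.28 CPM with LX-A3928, and 1.13, 1.76, 1.21 and 0.635 CPM with PBS. All oligonucleotide libraries lay above PBS and those of LX-A1656 above the rest. The log2 fold changes were 4.68 ± 0.33, 2.92 ± 0.33 and 2.86 ± 0.33 (adjusted p 1.30e-16, 3.33e-10 and 1.03e-09). Slc38a1 (SNAT1) averaged 14.5 ± 2.63, 7.62 ± 2.11 and 3.84 ± 0.728 CPM, against 1.52 ± 0.175 CPM with PBS. Slc38a2 (SNAT2), a carrier known to be induced by amino acid shortage, was the member called at 24 h with LX-A3928, at 120, 134, 140 and 138 CPM against 92.2, 86.9, 88 and 91.7 CPM with PBS (log2 fold change 0.57 ± 0.14, adjusted p 0.0153). That call was lost with library totals, without replicate 2 of PBS and without replicate 3 of LX-A3928, each of which left 0 members called. At 168 h it was higher with LX-A1656 (0.99 ± 0.14, adjusted p 9.84e-08), where the values with LX-A2003 and LX-A3928 were 0.02 ± 0.14 and -0.26 ± 0.14. LX-A2003 and LX-A3928 differed from LX-A1656 there by -0.97 ± 0.14 and -1.25 ± 0.15 (adjusted p 8.72e-07 and 2.08e-09).

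Slc38a3 (SNAT3), the System N carrier of glutamine and histidine in periportal hepatocytes, was lower at 72 h with LX-A1656, at 785 ± 139 CPM against 1422 ± 117 CPM with PBS (log2 fold change -0.86 ± 0.17, adjusted p 4.22e-05). At 168 h it was lower with LX-A2003 and LX-A3928 by -0.45 ± 0.17 and -0.59 ± 0.17 (adjusted p 0.0229 and 0.00376), the LX-A2003 call being lost without replicate 4 of that group, with a value of -0.07 ± 0.17 for LX-A1656. Slc38a6 was the member called at 24 h with LX-A1656, at 9.87 ± 1.84 CPM against 16.5 ± 0.593 CPM with PBS (-0.74 ± 0.20, adjusted p 0.0312). That call was lost in 6 of 8 fits that left out 1 library. At 72 h Slc38a6 was lower by -1.32 ± 0.20 with LX-A1656 (5.87e-07), and at 168 h the value was -0.10 ± 0.20 (0.673).

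Creatine, glycine and osmolyte carriers of the Slc6 family moved in both directions. Slc6a8, the creatine carrier, read 52.8, 39.5, 40 and 46.1 CPM at 168 h with LX-A1656, 32, 46.4, 30.6 and 30.4 CPM with LX-A2003, 24.7, 33, 16.9 and 40.8 CPM with LX-A3928, and 3.9, 3.31, 2.02 and 4.82 CPM with PBS. Every oligonucleotide library lay above every PBS library, with log2 fold changes of 3.66 ± 0.25, 3.30 ± 0.25 and 3.04 ± 0.25 (adjusted p 4.97e-17, 3.24e-15 and 5.78e-14). Slc6a9 (GlyT1), the glycine carrier, had its highest levels with LX-A1656 at 72 h, at 277, 150, 165 and 138 CPM against 45.2, 37.2, 36.9 and 30.9 CPM with PBS. At 168 h it averaged 81.5 ± 24.2 CPM with LX-A1656, 124 ± 19.4 CPM with LX-A2003 and 104 ± 31.7 CPM with LX-A3928, against 45.8 ± 12.3 CPM with PBS. From 72 h to 168 h its effect against PBS changed by -1.45 ± 0.30 with LX-A1656 and by 0.99 ± 0.30 with LX-A2003 (adjusted p 0.000179 and 0.00883).

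Slc6a13 (GAT2), a liver carrier of GABA and taurine, read 54.4, 42, 56.5 and 56.6 CPM at 168 h with LX-A1656, 170, 222, 174 and 121 CPM with LX-A2003, 100, 121, 104 and 137 CPM with LX-A3928, and 361, 255, 369 and 259 CPM with PBS. All oligonucleotide libraries lay below PBS, those of LX-A1656 lowest. The log2 fold changes were -2.57 ± 0.16, -0.86 ± 0.15 and -1.43 ± 0.15 (adjusted p 1.46e-18, 5.14e-06 and 1.27e-10). Slc6a12 (BGT1), a betaine carrier, averaged 21.2 ± 1.78, 26.1 ± 6.38 and 31.9 ± 6.71 CPM, against 66.9 ± 14.5 CPM with PBS. The taurine carrier Slc6a6 moved little, with calls of 0.31 ± 0.13 for LX-A1656 at 72 h (adjusted p 0.0453) and -0.33 ± 0.13 for LX-A3928 at 168 h (0.0297), lost without replicate 1 of LX-A1656 and without replicate 3 of LX-A3928. Slc6a4, the serotonin carrier, given without a test, had 64 counts with LX-A1656 at 72 h, against 13 with PBS, and replicate 1 of LX-A1656 held 2.95 CPM where the other 3 held 0.735 to 1 CPM.

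Slc1a2 (GLT-1), the glutamate carrier of pericentral hepatocytes, was lower at 168 h, at 62.0 ± 14.4, 93.5 ± 15.7 and 88.8 ± 13.8 CPM after LX-A1656, LX-A2003 and LX-A3928, against 140.3 ± 6.74 CPM with PBS. Its libraries lay below PBS with each oligonucleotide, by log2 fold changes of -1.18 ± 0.18, -0.58 ± 0.18 and -0.66 ± 0.18 (adjusted p 2.02e-07, 0.00463 and 0.00192). Scaled to library totals, the LX-A2003 and LX-A3928 values of -0.16 and -0.34 were not called (adjusted p 0.478 and 0.136). Of the proton-coupled carriers, Slc36a4 averaged 19.4 ± 3.65, 13.9 ± 2.91 and 14.1 ± 0.974 CPM at 168 h after LX-A1656, LX-A2003 and LX-A3928, against 7.95 ± 0.905 CPM with PBS, without overlap. Slc36a1 (PAT1), the lysosomal exporter of small amino acids, was called lower with LX-A1656 at 72 h (-0.62 ± 0.18, adjusted p 0.00404) and with LX-A3928 at 168 h (-0.53 ± 0.18, 0.0145), the second call being lost without replicate 3 of LX-A3928.

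Few members were called at 24 h, and at 72 h most calls were with LX-A1656. At 24 h LX-A1656 gave 1 lower of 32 members (2.86% of all genes called, 0.986% higher and 1.88% lower), LX-A2003 0 (2.09%, 0.939% and 1.15%) and LX-A3928 1 higher (3.26%, 1.68% and 1.58%). The LX-A2003 count of 0 is from edgeR, with 6 members at an unadjusted p under 0.05 and 0 called by DESeq2. At 72 h LX-A1656 gave 15 higher and 9 lower (48.2% of all genes called, 24.7% higher and 23.4% lower), LX-A2003 5 higher and 1 lower (12%, 5.48% and 6.55%) and LX-A3928 4 higher and 2 lower (9.8%, 4.47% and 5.33%). The median log2 fold change of the tested members at 72 h was 0.37, 0.08 and 0.19 after LX-A1656, LX-A2003 and LX-A3928, beside 0.05, 0.02 and 0.02 for all genes. Without replicate 1 of the LX-A1656 group at 72 h its count was 12 higher and 9 lower. The LX-A1656 count was 10 and 9 without replicate 2 of PBS, and 11 and 9 without replicate 4 of PBS. Without replicate 4 of the LX-A3928 group the LX-A3928 count was 4 higher and 1 lower. The LX-A3928 count was 3 without replicate 3 of that group and 2 without replicate 2 of PBS. With library totals as the scale, LX-A3928 at 72 h gave 2 higher and 4 lower. Slc1a5, Slc7a1 and Slc43a1 were called higher, and Slc43a3 lower, with all 3 oligonucleotides at 72 h. These comparisons also share their 4 PBS libraries, and the share of all genes called with all 3 was not counted. Leaving out single libraries lost the Slc43a1 calls with LX-A1656 and LX-A3928 and the Slc43a3 calls with LX-A2003 and LX-A3928, as given above.

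Tested directly, the effect at 168 h differed from that at 24 h for 21, 21 and 20 of the 32 members after LX-A1656, LX-A2003 and LX-A3928 (47%, 38.5% and 32.4% of all genes). Of these, 17, 16 and 13 changed upward, beside 23.2%, 20% and 17.4% of all genes, and 4, 5 and 7 downward, beside 23.8%, 18.5% and 15%. Without replicate 4 of LX-A1656, replicate 4 of LX-A2003 and replicate 3 of LX-A3928 at 168 h, the upward and downward counts were 17 and 6, 15 and 4, and 14 and 6. The effect at 168 h differed from that at 72 h for 18, 15 and 17 members (30.1%, 29.7% and 23% of all genes), a comparison added after the values were seen. Of these, 14, 12 and 11 changed upward, beside 14%, 15.9% and 12.5% of all genes, and 4, 3 and 6 downward, beside 16.1%, 13.8% and 10.5%. Without the same 168 h libraries these counts were 14 and 5, 12 and 2, and 11 and 6. Without replicate 1 of LX-A1656, replicate 1 of LX-A2003 and replicate 4 of LX-A3928 at 72 h they were 15 and 3, 12 and 2, and 10 and 7. In PBS livers 0 of 32 members were called at 72 h and 0 at 168 h against 24 h with edgeR (0.0789% of all genes at 72 h, 0.0473% higher and 0.0316% lower, and 1.03% at 168 h, 0.355% and 0.679%). There, 1 and 3 members had an unadjusted p under 0.05, and DESeq2 called 0 and 1.

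Set against each other, LX-A2003 and LX-A3928 both differed from LX-A1656 at the later times. At 72 h LX-A2003 differed from LX-A1656 in 19 members, 8 higher and 11 lower (35.9% of all genes called, 18% higher and 18% lower), and LX-A3928 from LX-A1656 in 24, 10 higher and 14 lower (40.6%, 20.4% and 20.1%). Slc7a2 stood highest in both, by log2 differences of 2.38 ± 0.26 for LX-A2003 over LX-A1656 and 2.63 ± 0.26 for LX-A3928 over LX-A1656 (adjusted p 5.79e-10 and 3.61e-11). Without replicate 1 of LX-A1656 at 72 h the LX-A2003 and LX-A3928 counts were 17 and 20. Without replicate 1 of LX-A2003 the LX-A2003 count was 21, and without replicate 4 of LX-A3928 the LX-A3928 count was 22. At 168 h LX-A2003 differed from LX-A1656 in 14 members, 3 higher and 11 lower (32.1%, 18.3% and 13.8%), and LX-A3928 from LX-A1656 in 18, 4 higher and 14 lower (41.7%, 23.2% and 18.5%). The last count was 16 without replicate 3 of LX-A3928 and 15 without replicate 4 of LX-A1656 at 168 h. Fitted on the 8 libraries of both groups alone it was 13, with 2870 rather than 5278 of all genes called. The LX-A2003 count was 5 higher and 9 lower without replicate 4 of LX-A1656, and 5 and 8 without replicate 4 of LX-A2003. The largest shortfalls at 168 h for LX-A2003 against LX-A1656 were Slc38a4 (-1.76 ± 0.26, adjusted p 9.15e-07), Slc1a5 (-1.57 ± 0.25, 3.57e-06) and Slc7a2 (-1.25 ± 0.25, 0.000115), and Slc6a13 was the most raised (1.71 ± 0.15, 6.12e-12). For LX-A3928 against LX-A1656 they were Slc38a1 (-1.90 ± 0.29, 9.06e-07), Slc38a4 (-1.83 ± 0.26, 2.75e-07) and Slc1a5 (-1.80 ± 0.26, 1.72e-07), with Slc6a13 the most raised (1.14 ± 0.15, 5.01e-08).

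Between LX-A3928 and LX-A2003 fewer members were called. At 72 h the count was 0 with edgeR (0.718% of all genes, 0.292% higher and 0.426% lower), with 4 at an unadjusted p under 0.05 and 1 called by DESeq2. At 168 h 6 were called, 1 higher and 5 lower in LX-A3928 (8.1%, 5.33% and 2.77%), of which Slc3a1 was the higher (1.31 ± 0.21, adjusted p 4.84e-05) and Slc1a4, Slc6a13, Slc7a6, Slc7a11 and Slc38a1 the lower. Slc7a6 and Slc7a11 are a description there, since the filter kept them through the groups where they are high. Without replicate 3 of LX-A3928 at 168 h the count was 1, with Slc3a1 at 1.11 (adjusted p 0.000983), without replicate 1 of LX-A2003 it was 3, and fitted on the 8 libraries of both groups alone it was 0. At 24 h the counts were 0, 1 and 0 for LX-A2003 over LX-A1656, LX-A3928 over LX-A1656 and LX-A3928 over LX-A2003 (0.284%, 2.9% and 0.15% of all genes). In that order the all-gene shares were 0.166%, 1.5% and 0.0631% higher and 0.118%, 1.4% and 0.0868% lower, with 4, 8 and 3 members at an unadjusted p under 0.05 and 0 called by DESeq2 in the first and the last. The 1 was Slc38a6, higher with LX-A3928 by 0.75 ± 0.20 (adjusted p 0.0294). That count was 0 without the filter and 0 without replicate 1 or 2 of LX-A1656 or replicate 2 or 3 of LX-A3928, and 2 without replicate 4 of LX-A1656.

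Some members gave no call between oligonucleotides at 168 h while being higher than PBS with each. For Slc7a5 the 95% interval of the log2 difference was -0.61 to 0.49 for LX-A2003 over LX-A1656, -0.85 to 0.26 for LX-A3928 over LX-A1656 and -0.79 to 0.32 for LX-A3928 over LX-A2003. For Slc3a2 the intervals were -0.68 to 0.22, -0.85 to 0.06 and -0.62 to 0.29 in the same pairs. Each interval takes in 0 and also sizeable differences, so the oligonucleotides are not shown to act alike on these genes. For Slc1a5 the interval of LX-A3928 over LX-A2003 was -0.74 to 0.29, beside -2.32 to -1.28 for LX-A3928 over LX-A1656.

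**Figure D3:**
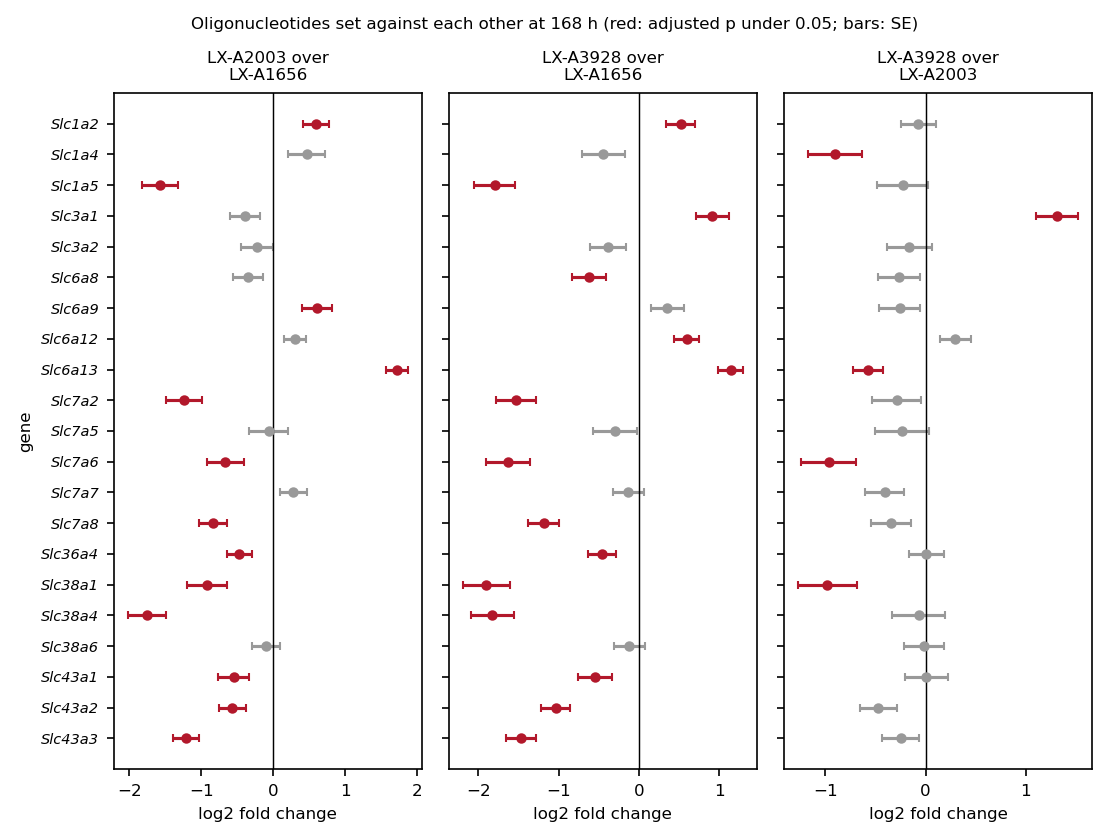
Log2 difference between oligonucleotides at 168 h for 21 transporter genes, with the SE as bars and genes at an adjusted p under 0.05 in red (4 libraries a group). Most red points lie left of 0 in the panels over LX-A1656, where Slc6a13 lies right of it, and the panel of LX-A3928 over LX-A2003 has Slc3a1 at 1.31. The Slc7a6 points are a description, as said above.

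Genes of the wider amino acid response were read from lists. Of 23 tested amino acid response (ATF4) genes, 16 were higher and 4 lower with LX-A1656 at 168 h, 14 and 3 with LX-A2003, and 13 and 2 with LX-A3928, with medians of 1.56, 1.38 and 0.66. Asns, which makes asparagine, was higher by log2 fold changes of 7.20, 5.06 and 5.00 with the 3 oligonucleotides in that order, and Atf3, a transcription factor of the stress response, by 4.90, 6.42 and 5.41 after LX-A1656, LX-A2003 and LX-A3928. The list counts at 168 h were 69.6%, 60.9% and 56.5% higher and 17.4%, 13% and 8.7% lower, beside 34.1%, 29.8% and 27.3% of all genes higher and 29.7%, 25.3% and 20.7% lower. At 72 h the list gave 12 higher and 2 lower, 10 and 0, and 8 and 0, or 52.2%, 43.5% and 34.8% higher beside 24.7%, 5.48% and 4.47% of all genes. Of the 10 NRF2 targets, 5, 7 and 7 were higher and 1, 0 and 1 lower at 168 h, with Srxn1, which repairs oxidised peroxiredoxins, at 3.03, 3.08 and 2.95.

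Enzymes of amino acid breakdown and the urea cycle had their highest count of lower calls with LX-A1656 at 72 h. Of 26 tested, 25 were lower and 0 higher with LX-A1656 at 72 h, where LX-A2003 gave 2 lower and LX-A3928 4 (96.2%, 7.69% and 15.4%, beside 23.4%, 6.55% and 5.33% of all genes). At 168 h 7 were higher and 11 lower with LX-A1656, 1 and 15 with LX-A2003 and 1 and 15 with LX-A3928. The lower shares were 42.3%, 57.7% and 57.7%, beside 29.7%, 25.3% and 20.7% of all genes. Hal, the first enzyme of histidine breakdown, had log2 fold changes of -3.57, -3.83 and -3.39. Of 20 cytosolic aminoacyl-tRNA synthetases 2 were higher and 7 lower, 4 and 6, and 5 and 5 at 168 h. The higher shares were 10%, 20% and 25%, beside 34.1%, 29.8% and 27.3% of all genes. The lower shares were 35%, 30% and 25%, beside 29.7%, 25.3% and 20.7%. Gars was higher at 1.43, 1.43 and 1.31, while as many or more of the synthetases called were lower. Of 24 genes of amino acid sensing by mTORC1, 10 were higher and 7 lower, 6 and 7, and 3 and 9. These were 41.7%, 25% and 12.5% higher and 29.2%, 29.2% and 37.5% lower, of which the LX-A1656 and LX-A2003 shares lay near those of all genes (34.1% and 29.8% higher, 29.7% and 25.3% lower). Lamtor4, a subunit of the lysosomal Ragulator complex, was lower at -1.90, -1.55 and -1.15. Of 13 other amino acid carriers and partner proteins, 8 were higher and 3 lower, 2 and 3, and 1 and 3. These were 61.5%, 15.4% and 7.69% higher and 23.1% lower with each, beside the same all-gene shares at 168 h. In this list the mitochondrial aspartate-glutamate carrier Slc25a13 was at -2.27, -0.89 and -1.04 and the lysosomal Slc15a3 at 2.73, 2.28 and 1.87.

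Markers of cell types moved in the same libraries. The summed level of 9 hepatocyte markers at 168 h was 33400 to 45900 CPM with LX-A1656, 35100 to 42100 CPM with LX-A2003 and 34700 to 88200 CPM with LX-A3928, against 71400 to 88400 CPM with PBS, and replicate 3 of LX-A3928 held the 88200. Of the 9, 8, 7 and 7 were called lower and 0 higher. Beside the marker counts at 168 h, 34.1%, 29.8% and 27.3% of all genes were higher and 29.7%, 25.3% and 20.7% lower. The 6 monocyte or recruited macrophage markers summed to 695 to 1040, 367 to 468 and 253 to 575 CPM, against 115 to 158 CPM with PBS, and 6 of 6 were higher with each oligonucleotide. Of the stellate list 7, 7 and 6 of 8 tested were higher and 0 lower, and of the Kupffer list 4, 3 and 4 of 7 higher and 1, 0 and 1 lower. The 8 stellate cell or fibroblast markers summed to 1430 to 1880, 880 to 1410 and 786 to 1570 CPM, against 450 to 482 CPM with PBS, the 8 Kupffer cell markers to 397 to 524, 450 to 608 and 375 to 620 CPM, against 236 to 256 CPM, and the 7 cholangiocyte markers to 263 to 344, 165 to 230 and 143 to 290 CPM, against 141 to 176 CPM. Of 6 tested cholangiocyte markers 2, 2 and 2 were higher and 2, 1 and 2 lower. Spp1 is in both the cholangiocyte and the monocyte or recruited macrophage list, so those sums share a gene.

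Sinusoidal endothelial markers, 8 in all, summed to 137 to 169, 160 to 187 and 179 to 249 CPM at 168 h after LX-A1656, LX-A2003 and LX-A3928, against 347 to 363 CPM with PBS, with 2, 2 and 3 higher and 5, 5 and 5 lower. Neutrophil markers summed to 13.8 to 36, 8.08 to 14.1 and 7.2 to 43 CPM, against 3.42 to 5.38 CPM, T cell markers to 5.15 to 10.6, 7.8 to 9.18 and 7.81 to 8.87 CPM, against 3.42 to 4.85 CPM, B or plasma cell markers to 2.21 to 3.56, 2.55 to 3.25 and 4 to 14.6 CPM, against 5.4 to 7.56 CPM, and erythroid markers to 26.1 to 38.7, 75 to 123 and 121 to 193 CPM, against 341 to 449 CPM. Replicate 3 of LX-A3928 held the 43 and the 14.6 CPM. Of 3 tested neutrophil markers 3, 1 and 3 were higher, and of 4 T cell markers 2, 3 and 2, with 0 lower in both lists. Of 3 tested B or plasma cell markers 1, 2 and 0 were lower, and of 3 erythroid markers 1, 1 and 2, with 0 higher in both lists. In PBS livers at 168 h C1qa of the Kupffer list and Ly6g and Mpo of the neutrophil list were at 0. At 72 h the LX-A1656 libraries had shifted as well. Hepatocyte markers summed to 45600 to 63200 CPM with LX-A1656, 73200 to 77400 CPM with LX-A2003 and 77200 to 109000 CPM with LX-A3928, against 72000 to 79400 CPM with PBS, and 6, 0 and 0 of 9 were lower and 0, 1 and 1 higher. Monocyte or recruited macrophage markers summed to 197 to 263, 139 to 163 and 117 to 187 CPM, against 119 to 130 CPM, with 5, 1 and 1 of 6 higher and 0 lower. Sinusoidal endothelial markers summed to 95.5 to 113, 184 to 202 and 175 to 209 CPM, against 318 to 360 CPM, with 5, 4 and 4 of 8 lower and 0 higher. Beside the marker counts at 72 h, 24.7%, 5.48% and 4.47% of all genes were higher and 23.4%, 6.55% and 5.33% lower. Already at 24 h the sinusoidal endothelial markers summed to 179 to 205, 269 to 316 and 263 to 288 CPM, against 313 to 348 CPM with PBS. Of the 8, 3, 2 and 2 were lower and 0 higher, beside 1.88%, 1.15% and 1.58% of all genes lower. The only other markers called at 24 h were 1 cholangiocyte marker lower with LX-A2003 and 1 with LX-A3928.

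Of the other lists at 72 h, neutrophil markers summed to 15.4 to 19.3 CPM with LX-A1656, against 3.61 to 5.48 CPM with PBS, where Mpo and Elane were at 0 in both groups and Cxcr2 in PBS. Kupffer cell markers summed to 189 to 206 CPM with LX-A1656, against 218 to 251 CPM, stellate or fibroblast markers to 423 to 481 CPM, against 419 to 449 CPM, and cholangiocyte markers to 124 to 141 CPM, against 138 to 162 CPM. Within these sums calls were mixed. Of 7 tested Kupffer markers 2 were higher and 4 lower, of 8 stellate markers 4 and 1, and of 6 cholangiocyte markers 1 and 1. T cell markers summed to 6.53 to 8.27 CPM with LX-A1656, against 3.53 to 5.08 CPM, B or plasma cell markers to 3.27 to 4.57 CPM, against 4.87 to 5.38 CPM, and erythroid markers to 136 to 223 CPM, against 283 to 347 CPM. With LX-A1656, 3 of 3 tested neutrophil and 2 of 4 T cell markers were higher. Of 3 tested B or plasma cell markers 0 were called, and of 3 erythroid markers 1 was lower. The part of the marker shifts at any of these times in the transporter values was not tested. In bulk liver, fewer cells of a type and less RNA per cell cannot be told apart.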

How the data were processed

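Raw read counts, whole numbers for each gene, were deposited by the authors from Ion AmpliSeq mouse transcriptome libraries of total liver RNA, per the labels' protocols. Aligner, counting tool, strand setting and genome build: not given in the sources used here. Columns were joined to samples by the library names of the labels. Genes were kept with the filterByExpr function of edgeR over the 12 groups, which left 12672 of 23930 genes with 99.891% or more of each library's counts. Scaling used TMM factors. One model of 12 group means was fitted to 48 libraries with the robust quasi-likelihood method of edgeR 4.0.16 (R 4.3.3, limma 3.58.1), leaving 36 residual degrees of freedom (common biological coefficient of variation 0.2114). P-values were adjusted over all genes tested. CPM are counts over TMM-scaled library size, given as mean ± SD of 4 libraries. The folds over a floor and the counting ratio use library totals without TMM factors. SE is the absolute log2 fold change over the square root of F, and 95% intervals use it with 36 degrees of freedom. Members named throughout had a mean of at least 10 CPM in a group, an adjusted p under 0.05 and a log2 fold change of 1 or more in either direction in a comparison with PBS (21 genes). Other members are named for a call, for their role in a system or in a count of all members, and list genes are among the 3 smallest p-values of their list. The members and lists were chosen with earlier results of these data known. The fit was tested on simulated data for LX-A1656 against PBS at 168 h over 11532 genes. It recovered 23.9%, 61.2% and 80.3% of genes changed 1.5-, 2- and 4-fold, with 5 false calls. Changed genes that the filter dropped counted as not recovered. Only 67, 67 and 66 genes were changed, on the PBS profile of 168 h, where the real comparison called 63.9% of all genes. The simulation therefore cannot speak for scaling or false calls under so broad a change. Alternatives were DESeq2 1.42.0 and its size factors, library totals, no filter, the compared libraries alone, a replicate block, and leaving out each library. Reads shared between near-identical family members could not be checked.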

Additional observations from a re-analysis of the deposited data

Results flagged for a closer look

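In 12 of 252 sets of 4 libraries (4.76%) of the 21 named members, 1 library lay far from its 3 fellows by Dixon's criterion, where chance gives 5%. High were Slc1a5 with LX-A2003 at 24 h (1.49 CPM against 0.994 to 1.06), Slc3a1 with LX-A2003 at 24 h (171 against 123 to 124), Slc38a1 with LX-A3928 at 24 h (1.82 against 0.587 to 0.766), Slc3a2, Slc6a8 and Slc7a6 with LX-A3928 at 72 h (48.8 against 40 to 41.5, 7.26 against 5.8 to 5.98, and 0.775 against 0.499 to 0.526), Slc6a8 with LX-A2003 at 168 h (46.4 against 30.4 to 32) and Slc43a3 with LX-A1656 at 168 h (75.1 against 70.1 to 70.9). Low were Slc1a2 and Slc7a2 in the same LX-A2003 library at 72 h (89.5 against 142 to 150 and 66.4 against 111 to 115), and Slc3a1 and Slc6a13 with LX-A1656 at 168 h (12.1 against 27.1 to 27.8 and 42 against 54.4 to 56.6).

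Effects against PBS differed between times for many members, and the strongest in each direction were flagged. From 24 h to 168 h the log2 effect of LX-A1656 changed upward by 4.33 for Slc1a5, 4.47 for Slc7a6 and 4.64 for Slc38a4, and downward at -2.53 for Slc3a1, -2.39 for Slc6a13 and -1.66 for Slc6a12. With LX-A2003 the changes were 2.90 for Slc1a5, 2.92 for Slc38a1 and 3.23 for Slc38a4, and -3.02 for Slc3a1, -1.52 for Slc6a12 and -0.92 for Slc38a3. With LX-A3928 they were 2.94 for Slc38a4, 3.11 for Slc7a6 and 3.11 for Slc1a5, and -1.47 for Slc3a1, -1.37 for Slc6a13 and -1.17 for Slc6a12. The largest adjusted p among these, by the edgeR test of the difference itself, was 0.00192 for Slc38a3. The Slc7a6 values are a description, since the filter kept that gene through the groups where it is high.

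Effects of opposite sign at 72 h and 168 h, each called, occurred for Slc7a2 with LX-A1656 (change 3.30), Slc43a3 with LX-A1656 (2.74) and LX-A2003 (1.09), and Slc43a2 with LX-A3928 (1.12). For the last 2 cases the calls at both 72 h and 168 h were lost on leaving out single libraries.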

How the results depend on the processing

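Called values of the 21 named members, among which those of Slc7a6 are a description, kept their direction under every alternative run. Of 87 such values, 5 lost the call with library totals, 5 without the filter, 7 when only the libraries compared were fitted, 1 with the replicate block (Slc7a7 with LX-A1656 at 72 h, adjusted p 0.0506) and 0 with DESeq2 or its size factors. Leaving out 1 library cost 12 of the 87 their call at least once. Fitted on the libraries compared alone, the members called against PBS numbered 4, 3 and 4 at 24 h after LX-A1656, LX-A2003 and LX-A3928, 11 at 72 h with LX-A2003, 4 for LX-A3928 over LX-A1656 at 24 h, 0 for LX-A3928 over LX-A2003 at 168 h (all genes 29, against 1026) and 11 for the change from 72 h to 168 h with LX-A3928 (against 17). All genes called then numbered 803, 754 and 1435 at 24 h, 2509 with LX-A2003 at 72 h and 3208 with LX-A3928 at 168 h, against 363, 265, 413, 1524 and 6087. Members called against PBS at 168 h in these fits numbered 23, 21 and 17 after LX-A1656, LX-A2003 and LX-A3928, against 23, 23 and 25. Without the filter the counts were 0 for LX-A1656 at 24 h and for LX-A3928 over LX-A1656 at 24 h. For LX-A3928 at 24 h the count was 0 with library totals, 2 with the replicate block and 2 with DESeq2. DESeq2 gave 1 for LX-A3928 over LX-A2003 at 72 h and 1 for PBS at 168 h over 24 h. The cause of these shifts was not tested. Leaving out 1 library gave counts of 0 to 1 with each oligonucleotide at 24 h, and 19 to 24 with LX-A1656 and 2 to 6 with LX-A3928 at 72 h. The counts were 0 to 2 for LX-A3928 over LX-A1656 at 24 h, 1 to 7 for LX-A3928 over LX-A2003 at 168 h and 0 to 1 for PBS at 168 h over 24 h. At 168 h the ranges were 23 to 25, 20 to 23 and 22 to 24 for the oligonucleotides in the same order. Library totals moved the median of all genes by 0.22 with LX-A1656 at 72 h and by 0.47, 0.42 and 0.30 at 168 h. Between 30 and 36 members were detected at thresholds of 2 and 0.5 CPM. Same-numbered replicates correlated in their deviations from the group means from -0.392 to 0.435, over 0.1 in 5 of 36 pairs, so the numbers were not treated as pairing. Depth limits the members under 1 CPM.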
